A study of Homo sapiens with 6 samples.

Results

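Transcript levels of 6 genes were followed in a knockdown of TCTP, the translationally controlled tumour protein. They were TPT1, which encodes TCTP and is the target of the hairpin, and the genes of 5 elongation factor proteins, EEF1A1, EEF1B2, EEF1D, EEF1G and EEF2. The genes were chosen by symbol, as the targeted gene and the elongation factors that TCTP binds or whose messages are regulated alongside its own. All 6 were found among the 26389 genes of the count table. The cells were HepG2, a human hepatocellular carcinoma line, and RNA-seq libraries existed for 2 groups of 3. In the shCtrl libraries the cells had received a control short hairpin RNA plasmid, and in the shTCTP libraries a plasmid with a hairpin against TCTP, both delivered with Lipofectamine 2000. The labels name a harvest at 48 h for quantitative PCR only, and describe no selection of transfected cells. They do not state whether replicate libraries derive from independent cultures, and the p-values therefore reflect the spread among these 6 samples alone, which may be technical. Fewer cells carrying the hairpin and a smaller effect per cell cannot be told apart in bulk RNA.

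During elongation, eEF1A (EEF1A1) brings aminoacyl-tRNA to the ribosome bound to GTP, and the eEF1B complex exchanges the spent GDP. EEF1B2 and EEF1D encode the exchange subunits of that complex, EEF1G encodes a structural subunit, and eEF2 (EEF2) then moves the ribosome along the message. TCTP is known to bind eEF1A and the exchange subunits of eEF1B. The messages of TPT1 and of most elongation factors belong to the TOP class, which starts with a C followed by a run of pyrimidines and whose translation depends on growth signals through mTOR.

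The libraries held 25427614 to 30486409 reads assigned to genes, and shTCTP replicate 3 was the shallowest. That library was also the least like the others: its correlation across genes with the remaining 5 averaged 0.977, against 0.986 to 0.987 for each of those. Its scaling factor by TMM, a normalization for library composition, was 1.17, against 0.919 to 1.02 in the others, which lowers its CPM (reads scaled to the size of the library) relative to its read shares. ALB, the albumin gene of hepatocytes, had at least 64349 reads in every library. The summed CPM of ALB, AFP, APOA1, TTR, SERPINA1 and HNF4A was 16769 to 17084 in shCtrl and 12830 to 15545 in shTCTP, and the groups did not overlap. All 6 of these genes had negative log2 fold changes (median -0.30), none past the threshold. For 3 of them the groups did not overlap, with shTCTP lower, as for 7.30% of tested genes. In CPM not scaled by TMM only TTR was apart. On that scale shTCTP replicate 3 lay above shCtrl replicate 3 for SERPINA1 (7941 against 7794 CPM) and HNF4A (181 against 148 CPM). With TMM the lowest shCtrl and highest shTCTP libraries nearly met for TTR, at 172.8 and 172.6 CPM. TTR had a log2 fold change of -0.50 (edgeR adjusted p = 0.164, unadjusted p = 0.0053). It was the 1 gene of the 6 with an unadjusted p under 0.05, beside 11.1% of tested genes. Of 6 fibroblast and blood cell markers, DCN and PTPRC were not found by symbol among the genes of the count table. COL3A1 had 3 to 20 reads per library and HBB had 0 to 49 reads per library. COL1A1 and CD68, the only 2 that could be tested, summed to 3.41 to 3.88 CPM in shCtrl and 2.50 to 3.60 CPM in shTCTP. The sum is mostly CD68, and the 2 went opposite ways. COL1A1, a collagen of fibroblasts, stood at 0.382 CPM in shCtrl and 0.891 CPM in shTCTP with overlapping groups (log2 fold change 1.20, edgeR adjusted p = 0.370, unadjusted p = 0.028), and CD68, a macrophage marker, had a log2 fold change of -0.52. Whether these marker differences have a part in the differences that follow was not tested.

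The first bases of the messages are shown because the TOP class is defined by them and because all the genes with a printed window had lower mean CPM in shTCTP. Each line gives 30 bases on the gene's own strand, 10 before and 20 from the start annotated by RefSeq on GRCh38.p14. Capitals mark a run that begins with C, goes on with at least 4 more bases that are each C or T, and begins within 3 bases of that start.
TPT1, chr13:45341164-45341193, minus strand: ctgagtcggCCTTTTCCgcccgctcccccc
EEF1A1, chr6:73521013-73521042, minus strand: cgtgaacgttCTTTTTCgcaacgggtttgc
EEF1B2, chr2:206159885-206159914, plus strand: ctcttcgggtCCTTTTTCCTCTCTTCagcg
EEF1B2, other start, chr2:206159599-206159628, plus strand: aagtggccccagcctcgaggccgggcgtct
EEF1G, chr11:62573872-62573901, minus strand: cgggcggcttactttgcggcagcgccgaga
EEF2, chr19:3985444-3985473, minus strand: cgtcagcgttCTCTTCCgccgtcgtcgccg
EEF1D is named only. The run was found at 4 of these 6 starts and in 4 of the 5 genes. The run of EEF1B2 was 16 bases long, that of TPT1 8 bases, and those of EEF1A1 and EEF2 7 bases each, and in TPT1 it began 1 base before the annotated start. The other EEF1B2 start and that of EEF1G did not hold these letters in the window, which says nothing about how their messages are translated. Only this one pattern was searched, on the gene's own strand. It was found near 13.0% of all 35116 annotated starts, near 69.2% of 78 starts of cytosolic ribosomal protein genes and near 1 of 23 starts of other elongation factor genes and genes of enzymes that modify these factors.

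None of the 6 genes passed the threshold of an adjusted p under 0.05 in the edgeR quasi-likelihood test over 14197 genes, where 1.41% of all tested genes did (1.26% higher and 0.148% lower in shTCTP). TPT1 alone had an unadjusted p under 0.05 in that test, against 11.1% of all tested genes in either direction and 4.27% with shTCTP lower. DESeq2, which called 2.21% of all tested genes, also called 0 of the 6, as did limma voom and limma on log2 FPKM. All 6 log2 fold changes were negative, as were 50.4% of those of all tested genes and 82.9% of those of the 246 genes with a mean of at least 500 CPM, the range of read numbers in which all 6 lie. The groups did not overlap, with shTCTP lower, for TPT1 and EEF2, a separation found for 7.30% of tested genes.

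**Figure D1:**
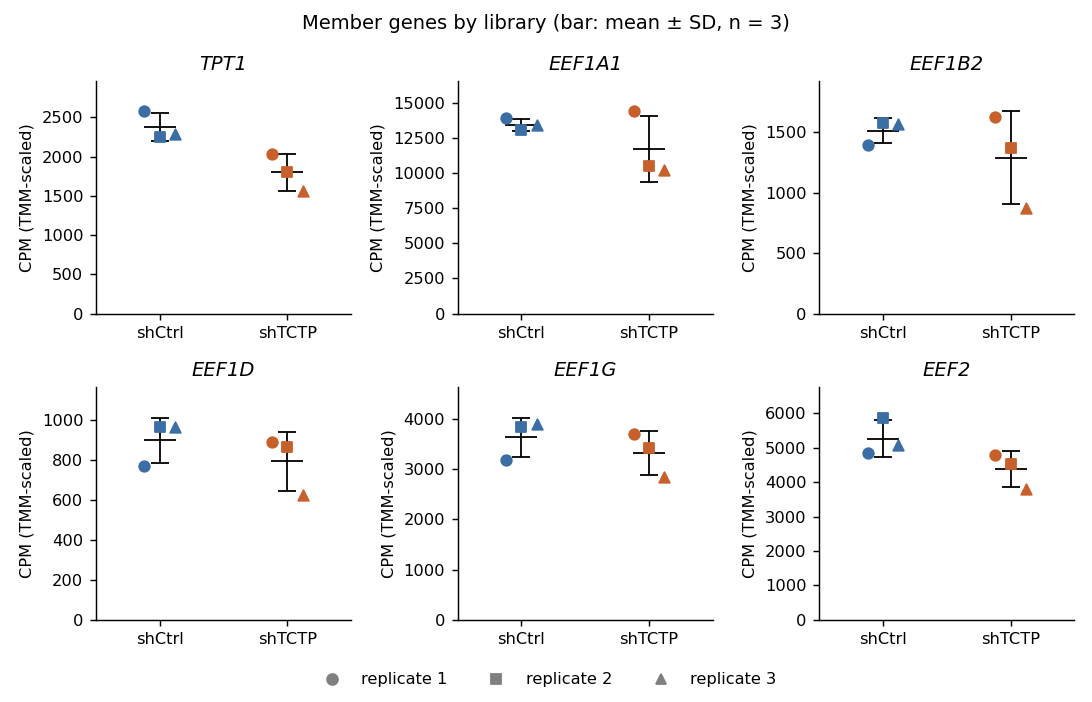
CPM scaled by TMM for TPT1 and the 5 elongation factor genes, with 1 panel per gene and 1 symbol per library, replicate number given by its shape. Horizontal bars are means with SD of 3 libraries, and on this scale shTCTP replicate 3 has the lowest value in every panel. In the deposited FPKM, not scaled by TMM, the lowest library is shTCTP replicate 2 for TPT1 and EEF1A1 and shCtrl replicate 1 for EEF1G.

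TPT1 (ENSG00000133112.16, GENCODE release 29 on GRCh38, chromosome 13, 45333471 to 45341370, minus strand) had 78527, 64839 and 63802 reads in the shCtrl libraries and 59329, 53712 and 46172 in the shTCTP libraries. Scaled, these were 2575, 2249 and 2290 CPM against 2032, 1807 and 1559 CPM. Every shTCTP library lay below every shCtrl library, with shCtrl replicate 1 the highest and shTCTP replicate 3 the lowest. The same separation stood in the deposited FPKM, which are not scaled by TMM, with 446, 366 and 358 FPKM in shCtrl and 332, 306 and 309 FPKM in shTCTP. On that scale shTCTP replicates 2 and 3 were nearly equal. The mean CPM was 2371 ± 178 (SD, n = 3) in shCtrl and 1799 ± 237 (SD, n = 3) in shTCTP. The estimated TPT1 level was 75.9% of control (95% confidence interval 59.0% to 97.7%). Its log2 fold change was -0.40 (SE 0.17, edgeR adjusted p = 0.396, unadjusted p = 0.0339). By exact permutation of the library values (two-sided) p was 0.1, which is the floor for 3 libraries against 3. Without shTCTP replicate 3 the log2 fold change of TPT1 was -0.29. The targeted transcript stood lower in all shTCTP libraries, and the difference did not pass the test over all genes.

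EEF1A1 (ENSG00000156508.17, chromosome 6, 73515750 to 73523797, minus strand) took 1.05% to 1.41% of all counted reads, the largest share of the 6. The shCtrl libraries gave 13886, 13023 and 13382 CPM and the shTCTP libraries 14382, 10488 and 10207 CPM. The groups overlapped: shTCTP replicate 1 had the highest value of all, and the other shTCTP libraries the lowest. The mean was 13430.3 ± 434 CPM (SD, n = 3) in shCtrl and 11692 ± 2334 CPM (SD, n = 3) in shTCTP. The spread between libraries was 3.23% of the mean in shCtrl and 20.0% in shTCTP. The log2 fold change was -0.20 (SE 0.21, edgeR adjusted p = 0.792), or 87.1% of control with an interval of 63.8% to 119%. It was -0.10 without shTCTP replicate 3, -0.38 without shTCTP replicate 1 and -0.11 on log2 FPKM, a scale on which the median of all genes stood at 0.057 to 0.091 depending on the pseudocount.

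EEF2 (ENSG00000167658.15, chromosome 19, 3976056 to 3985469, minus strand), the translocase, was the only member of the 5 elongation factor genes followed here whose groups did not overlap. The shCtrl libraries gave 4843, 5883 and 5080 CPM and the shTCTP libraries 4803, 4538 and 3816 CPM. The separation was narrow, since the lowest shCtrl library and the highest shTCTP library, both replicate 1, nearly met. In FPKM the groups were also apart, at 1493, 1703 and 1414 in shCtrl against 1396, 1366 and 1347 in shTCTP. The mean was 5269 ± 545 CPM (SD, n = 3) in shCtrl and 4386 ± 511 CPM (SD, n = 3) in shTCTP. The log2 fold change was -0.26 (SE 0.19, edgeR adjusted p = 0.652). The EEF2 level was 83.2% of control, with an interval of 63.3% to 109.5%. Without shTCTP replicate 3 the log2 fold change was -0.16, and on log2 FPKM it was also -0.16.

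The 3 subunit genes of eEF1B had overlapping groups, and in CPM each was lowest in shTCTP replicate 3. EEF1B2 (ENSG00000114942.13, chromosome 2, 206159585 to 206162928, plus strand) gave 1396, 1575 and 1569 CPM in shCtrl and 1628, 1369 and 874 CPM in shTCTP. Replicate 1 of shTCTP was the highest of the 6 libraries and replicate 3 lay far below the rest. The log2 fold change of EEF1B2 was -0.23 (SE 0.20, edgeR adjusted p = 0.738), and it was -0.0054 without shTCTP replicate 3 and -0.43 without shTCTP replicate 1. EEF1D (ENSG00000104529.17), the other exchange subunit, gave 769, 968 and 964 CPM in shCtrl and 892, 868 and 624 CPM in shTCTP. Here shCtrl replicate 1 lay below shTCTP replicates 1 and 2. The log2 fold change of EEF1D was -0.18 (SE 0.17, edgeR adjusted p = 0.768) with all libraries, -0.025 without shTCTP replicate 3, -0.28 without shCtrl replicate 1, -0.27 without shTCTP replicate 1 and -0.085 on log2 FPKM.

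EEF1G (ENSG00000254772.9, chromosome 11, 62559601 to 62574086, minus strand), the structural subunit, gave 3191, 3835 and 3896 CPM in shCtrl and 3703, 3422 and 2845 CPM in shTCTP. The means were 3641 ± 391 CPM (SD, n = 3) and 3323 ± 438 CPM (SD, n = 3), and shCtrl replicate 1 again lay low in its group. EEF1G had the log2 fold change closest to 0 of the 6, at -0.13 (SE 0.18, edgeR adjusted p = 0.849, 91.3% of control with an interval of 69.7% to 119.5%). It was -0.023 without shTCTP replicate 3, -0.083 without shCtrl replicate 3, -0.22 without shCtrl replicate 1 or shTCTP replicate 1, and -0.030 on log2 FPKM. The intervals of the 5 elongation factor genes began at 63.3% to 69.7% of control and ended at 109.5% to 119.5%, so each holds both no difference and the level of 75.9% estimated for TPT1.

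**Figure D2:**
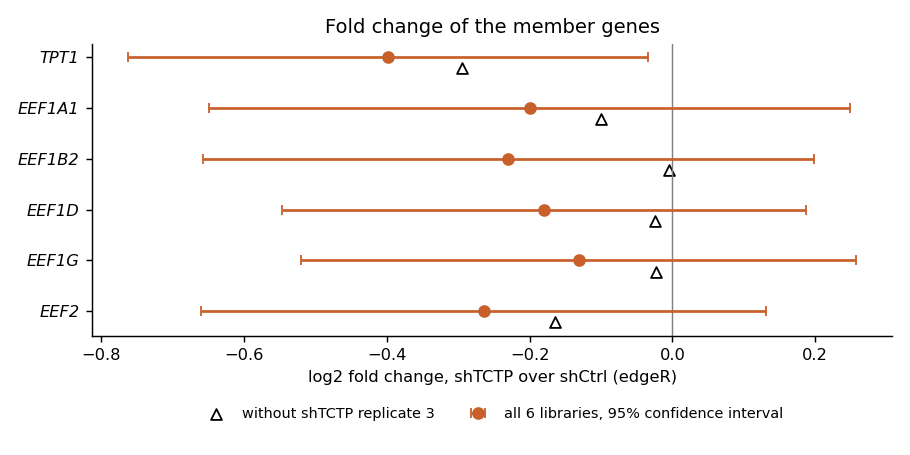
Log2 fold change of each gene, shTCTP over shCtrl, from edgeR (filled circles with 95% confidence intervals, 6 libraries) and the same without shTCTP replicate 3 (open triangles). All circles lie left of 0 and the interval of TPT1, from -0.76 to -0.034, is the only one that does not reach 0, while the triangles of EEF1B2, EEF1D and EEF1G lie at -0.025 or closer to 0.

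Within the eEF1B complex, the proportions of the subunit messages held in most libraries. There were 24.1, 25.2 and 24.7 EEF1D reads per 100 EEF1G reads in shCtrl and 24.1, 25.4 and 21.9 in shTCTP. EEF1B2 gave 43.8, 41.1 and 40.3 reads per 100 EEF1G reads in shCtrl and 44.0, 40.0 and 30.7 in shTCTP. Only shTCTP replicate 3 lay outside the range of the shCtrl libraries by more than 1 read per 100 in both ratios, with fewer reads of both exchange subunits. Between the GTPases there were 287, 221 and 263 EEF1A1 reads per 100 EEF2 reads in shCtrl and 299, 231 and 267 in shTCTP. Replicate 2 was the lowest and replicate 1 the highest in both groups. These ratios were not tested.

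A ratio of TPT1 to a partner within a library does not depend on how the library is scaled, so it asks whether TPT1 stood lower by more than each elongation factor gene. The ratio to EEF1G, the structural subunit, was the only one whose groups did not overlap. Against EEF1G, TPT1 had 80.7, 58.6 and 58.8 reads per 100 in shCtrl and 54.9, 52.8 and 54.8 in shTCTP. The shTCTP libraries were close to each other at 54.2 ± 1.18 (SD, n = 3) while shCtrl replicate 1 stood high. The difference in mean log2 ratio was -0.27 (exact two-sided permutation p = 0.1, adjusted p = 0.5 over 5 ratios). Without shCtrl replicate 1 it was -0.12. With 3 libraries against 3 none of the ratios could pass.

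Against EEF1A1, TPT1 had 18.5, 17.3 and 17.1 reads per 100 in shCtrl and 14.1, 17.2 and 15.3 in shTCTP, a log2 difference of -0.19 (exact permutation p = 0.2). Only shTCTP replicate 2 reached the shCtrl range, and the difference was -0.12 without shTCTP replicate 1. Against EEF1D the log2 difference was -0.21 (exact permutation p = 0.4), against EEF2 -0.14 and against EEF1B2 -0.13 (exact permutation p = 0.5 each), and all 3 pairs of groups overlapped. Without shCtrl replicate 1 these were -0.043, -0.019 and -0.011. The difference against EEF2 was -0.26 without shCtrl replicate 2. That against EEF1B2 was -0.030 without shTCTP replicate 1, -0.070 without shTCTP replicate 2 and -0.29 without shTCTP replicate 3. Against EEF1B2, shTCTP replicate 3 gave 178 TPT1 reads per 100, close to the 184 of shCtrl replicate 1. The mean ratio was lower in shTCTP for all 5 partners, which share the TPT1 values and so are not 5 separate observations.

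**Figure D3:**
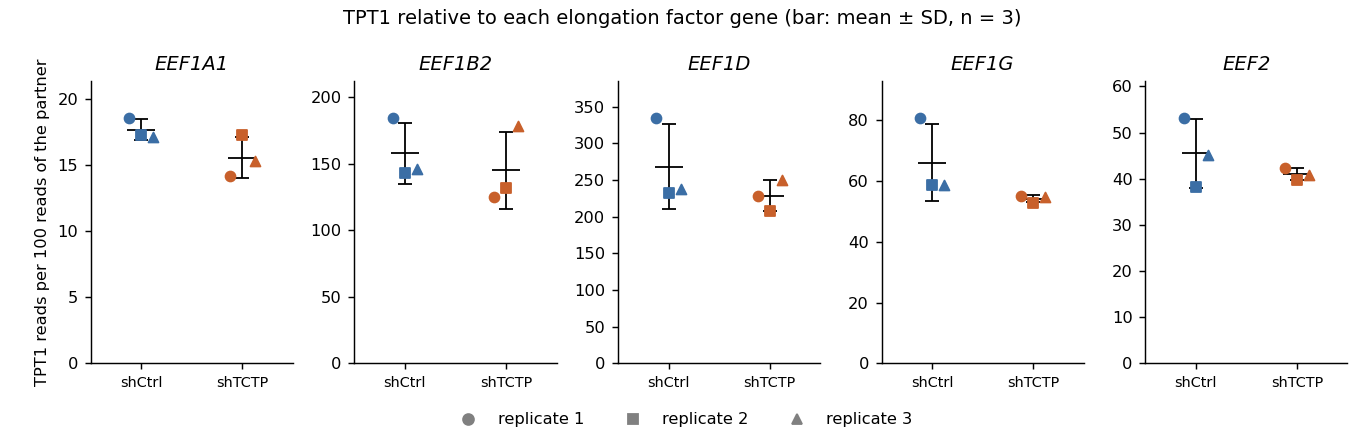
TPT1 reads per 100 reads of each elongation factor gene, 1 symbol per library, with bars for the mean and SD of 3 libraries. The groups are apart only against EEF1G, where shTCTP lies at 52.8 to 54.9 and shCtrl at 58.6 to 80.7.

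Together the 6 genes took 2.71%, 2.63% and 2.50% of all counted reads in the shCtrl libraries and 2.63%, 2.25% and 2.32% in the shTCTP libraries. Compared per length in the deposited FPKM of the shCtrl libraries, EEF1A1 stood highest at 2412 ± 189 FPKM (SD, n = 3). EEF1G followed at 2201 ± 140 FPKM, and these 2 overlapped. EEF2 came next at 1537 ± 150 FPKM, then EEF1B2 at 1248 ± 37.9 FPKM, TPT1 at 390.0 ± 48.6 FPKM and EEF1D at 219 ± 18.6 FPKM (SD, n = 3 each), with no overlap between neighbours from EEF1G down. The order was the same in shTCTP.

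The place of TPT1 in this order depended on the length it was divided by. The FPKM imply a length of 5874 bases for TPT1, which is 6.20 times its shortest transcript in the CCDS set (948 bases), while the same ratio was 1.04 for EEF1G and EEF2. Divided by the longest CCDS transcript of each gene, the order was that of the FPKM, with TPT1 at 493 CPM per kb. Divided by the shortest, TPT1 stood at 2501 ± 187 CPM per kb (SD, n = 3), second to EEF1A1 at 6984 ± 226 CPM per kb and overlapping with EEF1G at 2390.5 ± 257 CPM per kb. EEF1D was last in shCtrl by every length. Which transcripts the cells used was not analysed here. Dividing a gene by a fixed length does not alter its comparison between groups. A length correction fitted to each library can alter it, and gave TPT1 a log2 fold change of -0.43 (edgeR adjusted p = 0.205) in place of -0.40.

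**Figure D4:**
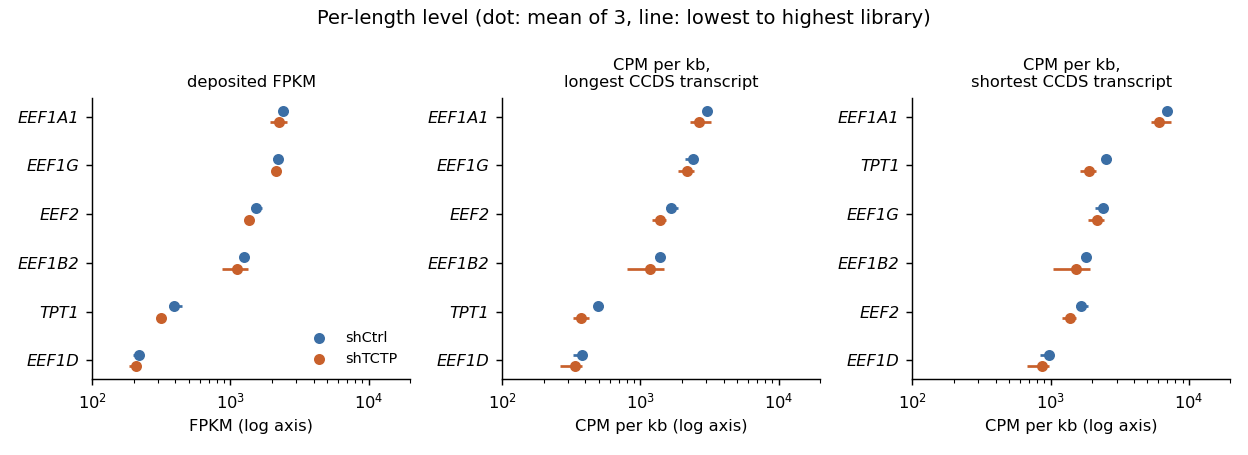
Level per length of the 6 genes in shCtrl (blue) and shTCTP (orange) on log axes, as deposited FPKM and as CPM per kb of the longest and the shortest CCDS transcript (dot, mean of 3 libraries; line, lowest to highest library). Genes are ordered by their shCtrl mean in each panel, and TPT1 moves from the fifth place to the second when the shortest transcript is used.

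Copies of these genes and genes that overlap them could share their reads. Pseudogenes held few counted reads: 17 pseudogenes of EEF1A1 had 2423 reads over the 6 libraries, 0.110% of those of EEF1A1, and the single counted pseudogene of TPT1 had 1 read. EEF1A1P5, the pseudogene with most reads, stood at 10.4 ± 0.630 CPM in shCtrl and 8.98 ± 1.64 CPM in shTCTP (SD, n = 3 each). Its log2 fold change was -0.21, beside the -0.20 of EEF1A1. EEF1B2P3 stood under 1 CPM, with a log2 fold change of -0.20. How reads with several matches were counted is not given in the sources used here, so these values are uncertain. RP11-864I4.1, a gene that GENCODE places over EEF1G on the same strand (14484 bases of overlap), stood at 14.4 ± 0.680 CPM in shCtrl and 17.2 ± 0.975 CPM in shTCTP (SD, n = 3 each). It was higher in all shTCTP libraries than in any shCtrl library, a separation in that direction found for 9.83% of tested genes, and its log2 fold change was 0.25 (SE 0.14, edgeR adjusted p = 0.542).

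An antisense RNA within TPT1, RP11-290D2.6, was the neighbour with the largest difference. It had 743, 550 and 308 reads in shCtrl and 324, 212 and 63 in shTCTP. The groups overlapped only through shCtrl replicate 3 and shTCTP replicate 1. As a share of TPT1 reads these were 0.946%, 0.848% and 0.483% in shCtrl and 0.546%, 0.395% and 0.136% in shTCTP. The log2 fold change was -1.42 (SE 0.43, edgeR adjusted p = 0.183), and -0.98 without shTCTP replicate 3. With the replicate number as a block it was -1.60 and passed (edgeR adjusted p = 2.1e-04). Its reads fell from replicate 1 to replicate 3 in both groups, although over all tested genes libraries of the same number did not deviate together. Whether strand was used in counting is not given in the sources used here, so reads of TPT1 and of this RNA cannot be told apart, and the gene lies over 1145 bases of TPT1. TPT1-AS1, another antisense RNA, which overlaps TPT1 by 26 bases, had 213, 215 and 194 reads in shCtrl and 214, 222 and 263 in shTCTP, a log2 fold change of 0.15. At EEF1B2, NDUFS1, a subunit of respiratory complex I on the opposite strand, had a log2 fold change of -0.25 and uc_338 one of 0.28. At EEF1D, RP11-661A12.8 had one of -0.22 and TIGD5 one of -0.040. None of these neighbours passed the edgeR threshold with group as the only term.

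The genes most like TPT1 across the 6 libraries were not elongation factors. Likeness was measured as the root mean square difference of mean-centred log2 CPM over 7037 other genes with a mean of at least 10 CPM. The closest were ATP5C1, a subunit of mitochondrial ATP synthase, at 0.0527, PSMG1, a proteasome assembly chaperone, at 0.0595, and ECI2, an enzyme of fatty acid oxidation, at 0.0598. TPT1 itself lay 0.238 from a flat profile. ATP5C1 gave 190, 165 and 171 CPM in shCtrl and 162, 133 and 109 CPM in shTCTP, a log2 fold change of -0.38 (edgeR adjusted p = 0.311). Because ATP5C1 was picked for its likeness to TPT1 in these same libraries, its similar fold change follows from the choice. Of the elongation factors, EEF1A1 ranked 111 at a difference of 0.130, EEF2 265 at 0.156, EEF1G 996 at 0.205, EEF1B2 1105 at 0.209 and EEF1D 1245 at 0.215.

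Other genes of translation were read beside the 6. Of 20 tested genes of other cytosolic elongation factors and of the enzymes that modify these factors, 0 passed the edgeR test, 3 had an unadjusted p under 0.05 and 1 passed with DESeq2, and 11 had log2 fold changes below 0 (median -0.020). Over all tested genes the shares were 11.1% for the unadjusted p, 2.21% for DESeq2 and 50.4% below 0, and the counts of this list lie near them. That 1 gene was EEF1A2, the paralogue of EEF1A1 found mainly in nerve and muscle, with 300, 312 and 315 reads in shCtrl and 462, 517 and 457 in shTCTP. All shTCTP libraries lay above all shCtrl libraries, a separation in that direction found for 9.83% of tested genes. The groups of EEF1A1 overlapped, with 2 of the 3 shTCTP libraries below all shCtrl libraries. EEF1A2 stood at 10.7 ± 0.748 CPM in shCtrl and 16.2 ± 1.03 CPM in shTCTP (SD, n = 3 each). The log2 fold change was 0.61 (SE 0.15), with an edgeR adjusted p of 0.0615 and a DESeq2 adjusted p of 0.0167. Without shTCTP replicate 3 its edgeR adjusted p was 0.0162, and without other single libraries up to 0.280. In edgeR with a correction for gene length, 1 gene of this list passed, higher in shTCTP. DPH5, an enzyme of the diphthamide modification of eEF2, stood at 37.6 ± 0.616 CPM in shCtrl and 26.7 ± 8.99 CPM in shTCTP (SD, n = 3 each), with a log2 fold change of -0.49 (edgeR adjusted p = 0.325) and -0.24 without shTCTP replicate 3.

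Of 79 cytosolic ribosomal protein genes, which share the TOP class with TPT1, 0 passed, 0 had an unadjusted p under 0.05 in the edgeR test and 0 passed with DESeq2. Their log2 fold changes were below 0 for 77 of the 79 and had a median of -0.16, which was 0.044 without shTCTP replicate 3, -0.33 without shTCTP replicate 1, -0.10 without shCtrl replicate 3 and -0.086 on log2 FPKM. Their summed CPM ran from 182123 to 222369 in shCtrl and from 128636 to 224982 in shTCTP. RPL39 was the most variable of those named, with 43667, 43464 and 40114 reads in shCtrl and 45770, 28502 and 12075 in shTCTP, and a log2 fold change of -0.58 (edgeR adjusted p = 0.541). Without shTCTP replicate 1 it was -1.10 and passed (edgeR adjusted p = 0.0328), and without shTCTP replicate 3 it was -0.20. RPL9 had a log2 fold change of -0.43 (edgeR adjusted p = 0.505), which was -0.16 without shTCTP replicate 3 and -0.68 without shTCTP replicate 1. The differences of EEF1B2, EEF1D and EEF1G likewise came close to 0 without shTCTP replicate 3.

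The 12 other TOP messages had a median of -0.14, with 10 negative. The median was -0.16 without shTCTP replicate 3, -0.038 without shCtrl replicate 1, and -0.038 and -0.036 on log2 FPKM with pseudocounts of 0.1 and 1. Their summed CPM was 5337 to 5455 in shCtrl and 4686 to 4881 in shTCTP, with no overlap, although 0 of the 12 passed with edgeR or DESeq2 and 0 had an unadjusted p under 0.05. Taken singly, 0 of the 12 genes had groups that did not overlap, against 17.1% of tested genes in either direction. NAP1L1, a histone chaperone, had a log2 fold change of -0.27 and EIF3E, an initiation factor subunit, one of -0.24, which were 0.045 and -0.040 without shCtrl replicate 1. The 246 genes of at least 500 CPM, whatever their function, also had a median of -0.14, which was 0.0056 without shTCTP replicate 3, while the median of all tested genes was -0.0023.

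Initiation factors, of which EIF3E, EIF3F, EIF3H, EIF4B and EIF2S3 were also among the other TOP messages, lay on both sides of 0. Of 35 tested, 11 were below 0 and the median was 0.055, 0 passed with edgeR or DESeq2, and 1 had an unadjusted p under 0.05. That was EIF3C, with 44.5 ± 7.17 CPM in shCtrl and 35.1 ± 3.12 CPM in shTCTP (SD, n = 3 each) and a value of -0.34 on the log2 scale. EIF3M, of the same complex, had one of -0.30, which was -0.11 without shCtrl replicate 1. Mitochondrial elongation factors (5 tested, 4 negative, median -0.042) and termination and ribosome rescue factors (5 tested, 3 negative, median -0.012) had 0 genes past the threshold with edgeR or DESeq2 and 0 with an unadjusted p under 0.05. GFM2, a mitochondrial ribosome recycling factor, had the lowest value among them at -0.34. GUF1, another mitochondrial factor, stood at -0.11, the ribosome rescue factor PELO at 0.15 and the release factor GSPT1 at -0.13. On log2 FPKM the medians of these 2 lists and of the other cytosolic elongation factors were 0.069 to 0.089. The median of all tested genes on that scale was 0.057 to 0.091.

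Of 12 regulators of TOP translation, 6 had log2 fold changes below 0 (median 0.026). RPS6KB1, the S6 kinase, stood at 5.65 ± 1.06 CPM in shCtrl and 7.53 ± 1.14 CPM in shTCTP (SD, n = 3 each), with a value of 0.41 on the log2 scale (edgeR adjusted p = 0.454) and 0.28 without shCtrl replicate 3. It was the 1 gene of the 12 whose groups did not overlap, beside 9.83% of tested genes with shTCTP higher. LARP1, which binds TOP messages, had a log2 fold change of 0.26, which was 0.071 without shTCTP replicate 3 and 0.41 without shTCTP replicate 1. Of 12 other proteins reported to bind TCTP, 3 had log2 fold changes below 0, and the median of 0.13 was the highest of the lists of translation and TCTP partners. MDM2, the ubiquitin ligase of p53, stood at 0.35 (0.19 without shCtrl replicate 3 and 0.21 without shTCTP replicate 3) and CHFR, a mitotic checkpoint ubiquitin ligase, at 0.25. In both lists 0 genes passed with edgeR or DESeq2 and 0 had an unadjusted p under 0.05.

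**Figure D5:**
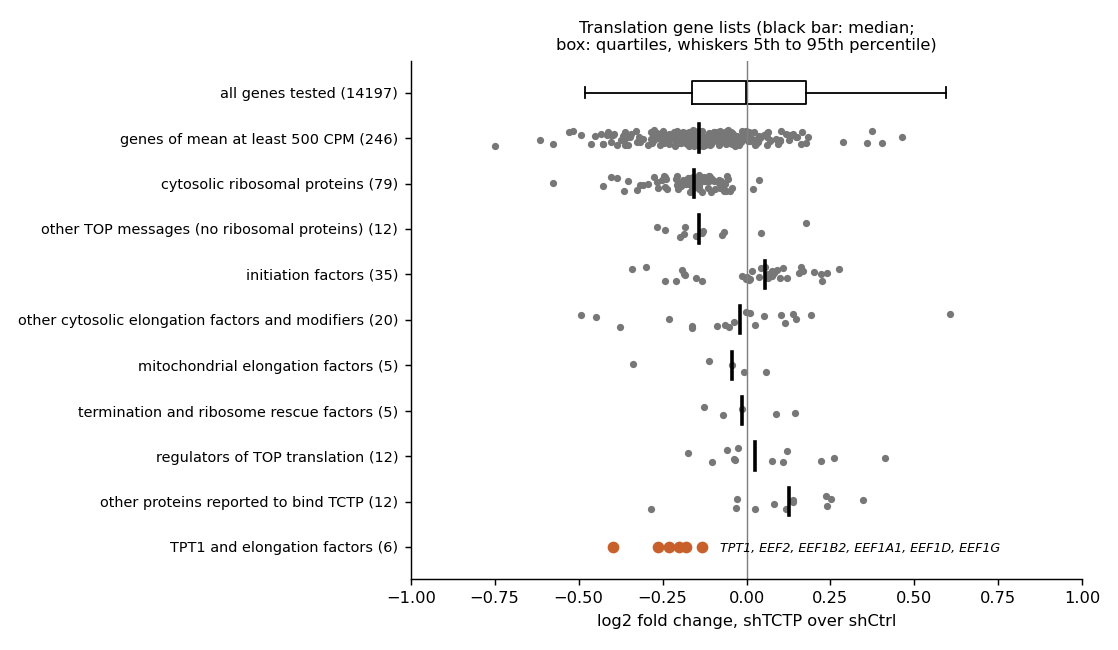
Log2 fold changes of the genes in each list (grey points, black bar for the median, number of genes in brackets) with all 14197 tested genes as a box of quartiles and whiskers to the 5th and 95th percentiles. The 6 genes (orange) lie between -0.40 and -0.13, in the range of the ribosomal proteins and of all genes of at least 500 CPM, whose medians are -0.16 and -0.14.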

How the data were processed

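The members and lists were chosen with earlier results of these data known. Per the labels' protocols, the libraries were directional, made from polyadenylated RNA and read from both ends. The authors deposited whole read counts and, in another table, FPKM. The submitters' processing notes name bcl2fastq, TopHat2, edgeR and the build GRCh38. Tool versions, annotation, counting rules and gene lengths were not given in the sources used here. Identifiers were matched to GENCODE release 29, where 98.0% were found.

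Counts of 26389 genes were filtered with filterByExpr and tested by quasi-likelihood in edgeR 4.0.16 (R 4.3.3, TMM, robust dispersion, group as the only term). Adjustment was by Benjamini-Hochberg over 14197 genes, with a threshold of 0.05. Exact two-sided permutation tests (scipy 1.17.1) served the TPT1 level and the 5 ratios. The procedure was run on simulated counts with the same dispersion for all genes and no outlying library. That run cannot show how the test behaves on libraries as uneven as these. Within groups, no pair of libraries was as alike as sampling noise allows (chi-square over degrees of freedom 15.1 to 94.1). Of 195 other list entries, 192 were matched, 5 by another symbol. Genes were named by rule: the 6 members, per list up to 4 genes past the threshold or else the 2 with the smallest p, the 3 genes most like TPT1, the pseudogenes with most reads, and tested genes overlapping a member or starting within 1 kb of its start. Alternatives were RLE and upper quartile normalization, other filters, DESeq2 1.42.0, limma 3.58.1 (voom, and log2 of FPKM plus 1 or 0.1), a length correction (loess, span 0.3), a replicate block, pseudogenes summed in, dispersion without robust fitting and each library left out. Lengths of CCDS transcripts and the limit of 500 CPM were added after seeing the data. Intervals cover the spread between libraries. Figures were drawn with matplotlib 3.10.9.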

Additional observations from a re-analysis of the deposited data

How the results depend on the processing

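None of the 6 genes passed the threshold, and all kept negative log2 fold changes, in each of 13 alternatives and 6 fits without 1 library. TPT1 ranged from -0.45 to -0.30 over the alternatives (adjusted p 0.132 with DESeq2 to 0.747) and from -0.50 to -0.29 without 1 library. Over all tested genes same-numbered libraries did not deviate together (correlations of -0.23, 0.0015 and -0.20), and none correlated best with its own number. With 3 libraries per group, these deviations from group means cannot show whether same-numbered libraries share a culture or batch, and the labels do not say. With a replicate block TPT1 stood at -0.40 (edgeR adjusted p = 0.747). Over the alternatives and the fits without 1 library, the other genes ranged from -0.38 to -0.10 for EEF1A1, -0.43 to -0.0054 for EEF1B2, -0.28 to -0.025 for EEF1D, -0.22 to -0.023 for EEF1G and -0.34 to -0.16 for EEF2. Without 1 library the log2 ratios of TPT1 ran from -0.26 to -0.12 against EEF1A1, -0.29 to -0.011 against EEF1B2, -0.31 to -0.043 against EEF1D, -0.35 to -0.12 against EEF1G and -0.26 to -0.019 against EEF2, so their negative sign can rest on differences close to 0. The permutation p of TPT1 was then 0.2, the smallest possible.

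The 200 genes past the threshold became 314 with DESeq2, 317 without a filter, 130 with the replicate block, and 79 to 343 without 1 library (90 without shCtrl replicate 1, 79 without shCtrl replicate 2, 101 without shCtrl replicate 3, 89 without shTCTP replicate 2 and 343 without shTCTP replicate 3). The share of them that was higher moved from 89.5% to 77.6% without a filter. RP11-290D2.6 passed with the replicate block (-1.60, adjusted p = 2.1e-04). On log2 FPKM plus 0.1 and plus 1 the median of all tested genes was 0.091 and 0.057, against -0.0023 in the main test. Log2 fold changes near 0 reversed on both for GUF1 (0.010, 0.0055) and TIGD5 (0.052, 0.037), and on the first for EEF1B2P3 (0.029). Without shCtrl replicate 1 they reversed for GUF1 (0.13), GSPT1 (0.067) and NAP1L1 (0.045), without shCtrl replicate 3 for TIGD5 (0.10) and EEF1B2P3 (0.090), without shTCTP replicate 1 for TIGD5 (0.094), and without shTCTP replicate 3 for TIGD5 (0.055) and uc_338 (-0.065). Over all fits without 1 library the ranges were -0.24 to 0.13 for GUF1, -0.25 to 0.067 for GSPT1, -0.40 to 0.045 for NAP1L1, -0.065 to 0.48 for uc_338, -0.31 to 0.10 for TIGD5 and -0.55 to 0.090 for EEF1B2P3. The cause was not tested. Each of the 6 genes had at least 18470 reads per library, and the 3 libraries per group limit the precision.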
